A study of Mus musculus with 6 samples.

Results

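The cytosolic nucleic acid sensors described here are 10 genes chosen by name for their role (Ddx58, Ifih1, Dhx58, Mavs, Ddx60, Zbp1, Eif2ak2, Trim25, Tbk1 and Aim2), each matched by its symbol to 1 row of a table of read counts for 54532 genes. Earlier results of these data were known when these genes and the other lists were chosen. Expression was measured by bulk RNA sequencing of the ischemic liver lobe in 2 groups of C57bl/6 mice, IRF8-cKO and WT, with 3 libraries each (IRF8-cKO-71, then IRF8-cKO-88, then IRF8-cKO-106, and WT-14, then WT-44, then WT-77, the order in which single-library values are listed throughout). IRF8-cKO mice lack the transcription factor IRF8 in hepatocytes, and both groups had 1 h of warm ischemia followed by 12 h of reperfusion, so all values are levels in injured tissue. Neither the Cre driver nor the age of the mice is given in the sources used here, and nothing states that the libraries are separate animals, so the spread that p-values measure is that between libraries and may be technical. The comparison asks how sensing genes of the injured lobe differ when hepatocytes lack IRF8.

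Cells recognise nucleic acid in the wrong place through a small set of cytosolic proteins. RIG-I (Ddx58) and MDA5 (Ifih1) are helicases that bind double-stranded RNA and then assemble the mitochondrial adaptor MAVS into filaments, from which the kinase TBK1 activates IRF3 and interferon genes. LGP2 (Dhx58) modulates both receptors, the ubiquitin ligase TRIM25 modifies RIG-I, PKR (Eif2ak2) halts translation on binding double-stranded RNA, ZBP1 reads left-handed nucleic acid and can start cell death, and AIM2 builds an inflammasome on DNA. Several of these genes are themselves induced by interferon, through promoter elements that IRF proteins bind.

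Library totals ran from 16385964 to 16805830 reads in IRF8-cKO and from 14758237 to 16010064 reads in WT. Irf8, the targeted gene, stood at 5.67, 6.71 and 4.16 CPM (counts scaled to library size and composition) in the IRF8-cKO libraries, against 9.30, 9.48 and 10.3 CPM in the WT libraries. The groups did not overlap, but the difference did not pass in edgeR's quasi-likelihood test over all genes (log2 fold change -0.81, SE 0.33, adjusted p = 0.174), and immune cells of the lobe carry Irf8 transcripts too. Hepatocyte transcripts dominated as the tissue label has it, with albumin (Alb) at 46858 to 58797 CPM in IRF8-cKO and 61713 to 88584 CPM in WT. Mitochondrial genes took 5.99%, 7.14% and 6.01% of reads in the IRF8-cKO libraries, against 7.19%, 20.2% and 14.5% in the WT libraries.

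Of the 10 sensor genes, Mavs alone passed the test, and it rose 2.90-fold in IRF8-cKO livers (95% interval 1.77 to 4.75). That call stood at the threshold (edgeR adjusted p = 0.0495) and was lost in 11 of 15 alternative settings. The other 9 genes, the receptors RIG-I and MDA5 among them, overlapped between the groups, and none of them passed. Missing the threshold does not show that these 9 were equal between the groups, since the intervals of the fold change allow sizeable differences, for example 0.380 to 1.47 for Zbp1 and 0.350 to 2.20 for Aim2. All 10 genes passed the filter on low counts. The count of 1 called gene among 10, a higher one, stands beside 1.39% of all 13134 genes tested, of which 0.449% were higher and 0.937% lower. DESeq2 also called 1 of 10, beside 10.8% of all genes, limma-voom called 0, beside 0.845%, and 1 of 10 had an unadjusted edgeR p under 0.05, beside 24.1%. Mavs was the 1 gene whose CPM did not overlap between groups, which was so for 28.9% of all genes. The log2 fold changes of the 10 genes had a median of -0.059, beside 0.028 over all genes tested, with 3 positive and 7 negative values.

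**Figure D1:**
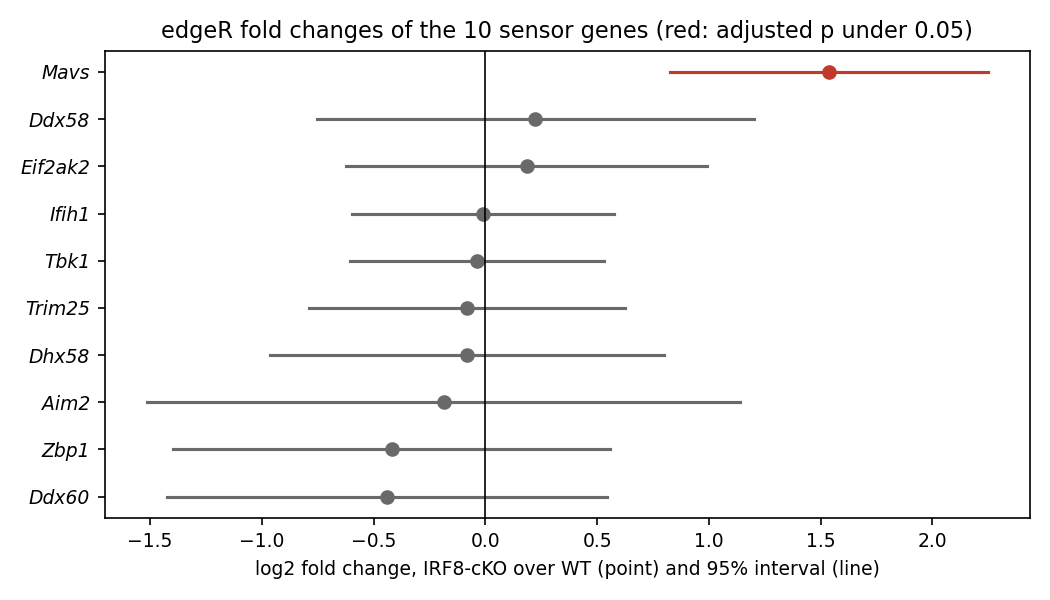
Log2 fold change of each sensor gene in IRF8-cKO over WT livers (horizontal axis), with points for the edgeR estimate and lines for its 95% interval. Mavs lies at 1.54 with an interval from 0.83 to 2.25, while the intervals of the other 9 genes all include 0.

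Mavs encodes the adaptor on which both RNA receptors converge (ENSMUSG00000037523, chromosome 2, 131234063 to 131248025, plus strand, mm10). It was covered by 1719, 1395 and 1684 reads in the IRF8-cKO libraries, against 645, 225 and 512 reads in the WT libraries. Scaled, this gave 105.9, 85.9 and 77.9 CPM in the 3 IRF8-cKO libraries and 39.5, 19.4 and 34.0 CPM in the 3 WT libraries. The lowest IRF8-cKO library thus lay well above the highest WT library, WT-14, and WT-44 was the lowest of all. The means were 89.9 ± 14.4 CPM in IRF8-cKO and 30.9 ± 10.4 CPM in WT (SD, n = 3 each). In the edgeR test the log2 fold change of 1.54 (SE 0.32) had an adjusted p = 0.0495, placing Mavs at rank 181 by p among 182 called genes. The exact permutation test on log2 CPM (two-sided) gave p = 0.1, the smallest possible with 3 against 3 libraries.

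The rise of Mavs had the same direction in all 15 alternatives, with log2 fold changes from 1.29 to 1.75, but it stood at the threshold and passed in 4 of them. It did not pass without IRF8-cKO-71 (adjusted p = 0.0585), IRF8-cKO-106 (0.0977), WT-14 (0.0601), WT-44 (0.204) or WT-77 (0.201), the range over the alternatives being 0.000188 to 0.204. Without both WT-44 and WT-77, the libraries with most mitochondrial reads, the log2 fold change was 1.19 (SE 0.49). This setting was chosen after seeing the data, and only edgeR was run on it. It leaves WT-14 as the only WT library, so it cannot separate the mitochondrial share from other traits of single libraries. The part of the mitochondrial share in the rise was not tested.

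**Figure D2:**
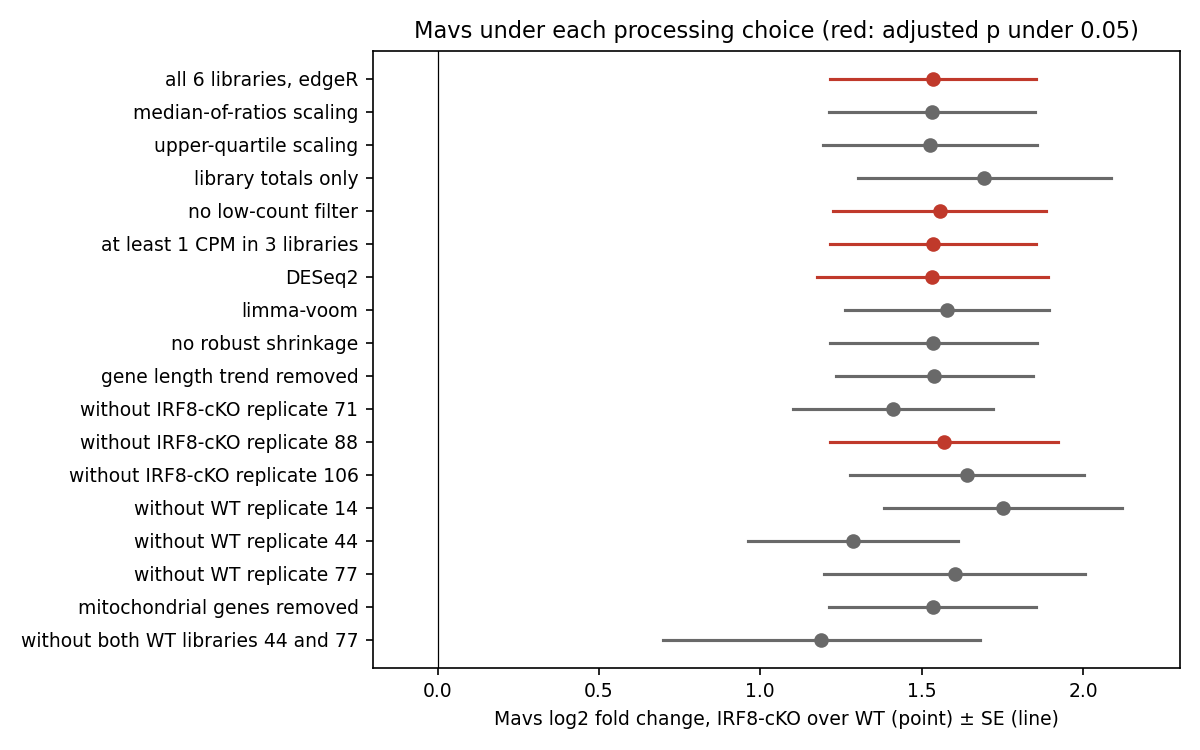
Mavs log2 fold change in IRF8-cKO over WT (horizontal axis) under each processing choice (rows), with points for the estimate and lines for ± 1 SE. Every estimate lies above 0, from 1.19 to 1.75, and the red ones have an adjusted p under 0.05.

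No other gene in the table overlaps the Mavs locus. The nearest tested gene on one side, Ap5s1, ended 20549 bases before Mavs and had 18.7, 46.8 and 21.7 CPM in the IRF8-cKO libraries, against 28.5, 52.1 and 52.0 CPM in the WT libraries (log2 fold change -0.61, SE 0.39, edgeR adjusted p = 0.360). On the other side Pank2, encoding a pantothenate kinase, began 14470 bases after it and had 17.3, 16.5 and 21.8 CPM in the IRF8-cKO libraries, against 16.5, 16.1 and 15.1 CPM in the WT libraries (log2 fold change 0.22, SE 0.26, adjusted p = 0.628). Both neighbours overlapped between the groups, and Mavs did not, beside 28.9% of all genes without overlap.

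The promoter letters are shown because IRF8 and other IRF proteins bind a known DNA element, and because Mavs and Ddx60 have the highest and the lowest log2 fold change of the 10 genes. The IRF element was searched as GAAANNGAAA and the composite element of ETS and IRF proteins as GGAANNGAAA, on both strands, from 250 bases before to 50 bases after the RefSeq gene start (GRCm38.p6, the build called mm10). The 2 spellings differ in their second letter, so no stretch matches both at 1 place in 1 orientation. Promoters of 8 of the 10 genes were matched by symbol, and Dhx58 and Zbp1 are named only. Capitals mark matches to the IRF element.
Mavs, chr2:131233813-131234112, plus strand: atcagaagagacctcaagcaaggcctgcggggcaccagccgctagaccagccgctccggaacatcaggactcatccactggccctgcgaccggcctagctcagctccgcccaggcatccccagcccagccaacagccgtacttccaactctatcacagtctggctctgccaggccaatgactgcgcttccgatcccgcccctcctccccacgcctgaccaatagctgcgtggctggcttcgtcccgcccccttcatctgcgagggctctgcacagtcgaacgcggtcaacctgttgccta
Ddx60, chr8:61927837-61928136, plus strand: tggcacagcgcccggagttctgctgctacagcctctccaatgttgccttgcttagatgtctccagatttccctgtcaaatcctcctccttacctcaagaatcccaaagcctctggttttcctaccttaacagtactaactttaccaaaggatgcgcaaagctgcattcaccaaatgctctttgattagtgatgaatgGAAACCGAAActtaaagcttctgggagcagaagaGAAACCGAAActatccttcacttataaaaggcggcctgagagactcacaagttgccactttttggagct
Mavs had no match to either spelling in this window. Ddx60 had 2 matches to the IRF element, beginning 53 and 19 bases before the gene start. Single matches occurred in Ifih1, Ddx58 and Eif2ak2. These began after the gene start, at base 33 in Ifih1, base 3 in Ddx58 and base 19 in Eif2ak2. They are shown with up to 10 bases on each side, the match in Ddx58 being on the opposite strand of its gene.
Ifih1, chr2:62646206-62646233, minus strand: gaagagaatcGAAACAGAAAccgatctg
Ddx58, chr4:40239804-40239833, minus strand: cctgaggcagTTTCGATTTCctatggccag
Eif2ak2, chr17:78882535-78882564, minus strand: agtccgccggGAAAACGAAAcagaagagaa
The IRF element was thus found in 4 of 8 sensor promoters, beside 3.44% of the 32851 promoters of this length. Mavs, Trim25, Tbk1 and Aim2 had no match to it. The Aim2 window (chr1:173420354-173420653) lies inside the counted Aim2 locus, which begins at 173350879, and not at its start. Trim25 had the composite element, which 2.72% of promoters hold. A match describes the letters in the window and not a bound site. None of the 4 genes with the element passed the test between the groups, beside 1.39% of all genes. With so low a share, 4 genes are too few to say anything about the element.

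The RNA receptors did not separate the groups. Ddx58 (chromosome 4, 40203773 to 40239828, minus strand), encoding RIG-I, had 14.3, 4.99 and 8.61 CPM in the IRF8-cKO libraries, against 7.34, 5.52 and 11.02 CPM in the WT libraries. The highest and the lowest library were both IRF8-cKO, so the spread within that group was wider than the difference of the means (9.31 ± 4.72 against 7.96 ± 2.80 CPM, SD, n = 3 each). Its log2 fold change of 0.22 (SE 0.44, edgeR adjusted p = 0.783) turned to -0.22 without IRF8-cKO-71. Ifih1 (chromosome 2, 62595798 to 62646255, minus strand), encoding MDA5, had 19.3, 13.9 and 16.5 CPM in the IRF8-cKO libraries, against 17.1, 15.8 and 17.2 CPM in the WT libraries. Its means nearly coincided, at 16.6 ± 2.68 and 16.7 ± 0.783 CPM, and the 95% interval of the fold change ran from 0.662 to 1.49. A rise of the size of that of Mavs lies outside this interval.

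Dhx58 (chromosome 11, 100694884 to 100704271, minus strand), encoding LGP2, the relative of RIG-I that lacks its signalling domains, had 4.86, 3.70 and 2.59 CPM in the IRF8-cKO libraries, against 4.53, 3.79 and 3.45 CPM in the WT libraries. The IRF8-cKO libraries reached both above and below the WT range, and the fold change of 0.945 had an interval from 0.513 to 1.74. Ddx60 (chromosome 8, 61928087 to 62038244, plus strand), an interferon-induced helicase gene reported to promote signalling by RIG-I-like receptors, had 2.09, 1.29 and 1.62 CPM in the IRF8-cKO libraries, against 2.69, 1.90 and 2.19 CPM in the WT libraries. Its log2 fold change of -0.44 (SE 0.44, edgeR adjusted p = 0.566) was the lowest of the 10 genes and rested on 21 to 44 reads per library. IRF8-cKO-71 lay inside the WT range and the other 2 IRF8-cKO libraries below it.

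Trim25 (chromosome 11, 88999376 to 89020293, plus strand), the ubiquitin ligase gene, had 75.7, 157 and 142 CPM in the IRF8-cKO libraries, against 143, 126 and 128 CPM in the WT libraries. IRF8-cKO-71 stood apart below all other libraries, and IRF8-cKO-88 was the highest. The log2 fold change was -0.080 (SE 0.32, edgeR adjusted p = 0.897) with all libraries and 0.19 without IRF8-cKO-71. Tbk1 (chromosome 10, 121546455 to 121586787, minus strand), the kinase gene below MAVS and STING, was the steadiest member in IRF8-cKO, with 42.5, 48.0 and 40.6 CPM in the IRF8-cKO libraries, against 35.5, 49.7 and 49.4 CPM in the WT libraries. The IRF8-cKO values all fell inside the WT range, and the interval of the fold change ran from 0.657 to 1.44.

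Eif2ak2 (chromosome 17, 78852564 to 78882573, minus strand), encoding PKR, had 10.7, 9.30 and 15.6 CPM in the IRF8-cKO libraries, against 14.99, 7.76 and 8.56 CPM in the WT libraries. Each group had 1 library near 15 CPM and 2 lower ones, and the fold change of 1.14 had an interval from 0.650 to 1.99. The log2 fold change was 0.18 with all libraries and -0.051 without IRF8-cKO-106.

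Zbp1 (chromosome 2, 173206612 to 173218923, minus strand), the sensor gene linked to necroptosis, had 11.6, 4.44 and 4.21 CPM in the IRF8-cKO libraries, against 10.5, 8.97 and 7.56 CPM in the WT libraries. IRF8-cKO-71 was the highest library of all, while the other 2 IRF8-cKO libraries were the lowest. The log2 fold change was -0.42 (SE 0.44, edgeR adjusted p = 0.581) and became -1.05 without IRF8-cKO-71, where it did not pass either (adjusted p = 0.137, the lowest of its alternatives, which ranged up to 0.880 among those leaving out 1 library). Aim2 (chromosome 1, 173350879 to 173466040, plus strand), the DNA sensor gene, had 0.677, 1.97 and 0.601 CPM in the IRF8-cKO libraries, against 1.04, 1.03 and 1.59 CPM in the WT libraries. These are 11 to 32 reads per library, and the interval of the fold change was wide, from 0.350 to 2.20. Aim2 also overlaps Cadm3 on the opposite strand, which had 206 reads over the 6 libraries beside 109 for Aim2, so that its count is uncertain without the strand setting.

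**Figure D3:**
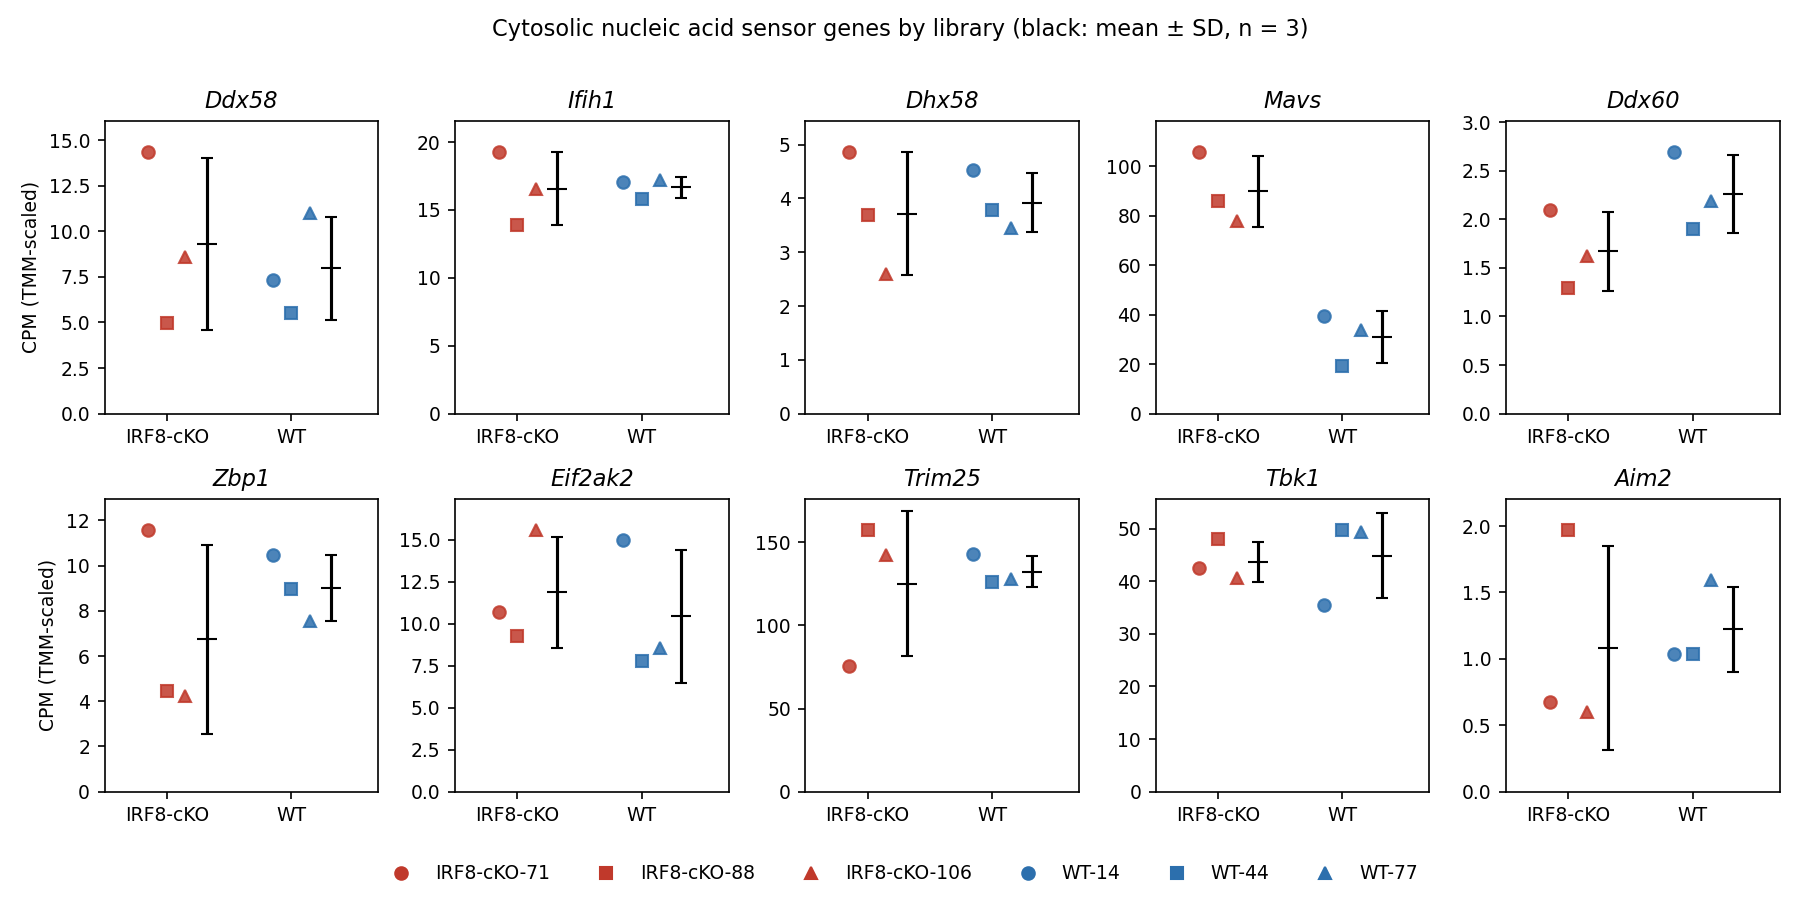
CPM of the 10 sensor genes (vertical axes, each from 0) in the 3 IRF8-cKO and 3 WT libraries, with the symbol giving the library and black marks the mean ± SD. Mavs is the 1 panel in which the groups separate, at 77.9 to 105.9 CPM in IRF8-cKO and 19.4 to 39.5 CPM in WT, and IRF8-cKO-71 lies away from its group in Trim25 and Zbp1.

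Immune cells express Zbp1, Aim2 and the interferon-induced receptors, and in a bulk sample fewer cells of a type and less RNA per cell cannot be told apart. All 10 Kupffer cell markers were detected and had positive log2 fold changes, beside 51.5% of all genes. None passed by edgeR, while DESeq2 called 3, beside 10.8% of all genes. An unadjusted edgeR p under 0.05 was found for 5, beside 24.1%. CPM of 3 of the 10 were higher without overlap, beside 14.4%. The summed Kupffer cell level was 391, 247 and 186 CPM in the IRF8-cKO libraries, against 116 to 139 CPM in WT. IRF8-cKO-71 was the highest library for the Kupffer cell, neutrophil and T and NK cell sums and the lowest for the monocyte and macrophage, B cell, cholangiocyte and stellate cell sums. Among the sensor genes it was the highest library for Mavs, Ddx58, Ifih1, Dhx58 and Zbp1 and the lowest for Trim25. Of 10 neutrophil markers tested, 5 were lower and 0 higher, beside 0.937% of all genes called lower, with a median log2 fold change of -2.03. The count of 5 became 0 without WT-44, 0 without WT-77, 1 without IRF8-cKO-106, 3 with the gene length trend removed and 8 by DESeq2. CPM of 9 of the 10 were lower without overlap, beside 14.5% of all genes, and the exception was Lcn2. Summed neutrophil marker levels overlapped, at 784 to 4652 CPM in IRF8-cKO and 1215 to 3537 CPM in WT, and most of both sums was Lcn2, which hepatocytes also make. Monocyte and macrophage markers summed to 149 to 945 CPM in IRF8-cKO and 493 to 1081 CPM in WT (0 of 9 tested passed). Cd14 alone took 42.9 to 842 CPM in IRF8-cKO and 388 to 968 CPM in WT. Of the 9 tested, 4 had positive and 5 negative log2 fold changes. Dendritic cell markers, with Bst2 as most of the sum, came to 70.8 to 93.7 CPM in IRF8-cKO and 153 to 198 CPM in WT (0 of 4 passed). The remaining sums were 4.03 to 7.70 CPM in IRF8-cKO and 3.12 to 6.37 CPM in WT for T and NK cells, and 2.83 to 5.98 CPM in IRF8-cKO and 6.37 to 16.4 CPM in WT for B cells. Endothelial markers summed to 128 to 193 CPM in IRF8-cKO and 137 to 194 CPM in WT, cholangiocyte markers to 129 to 250 CPM in IRF8-cKO and 456 to 941 CPM in WT, stellate cell markers to 182 to 315 CPM in IRF8-cKO and 216 to 330 CPM in WT, and erythroid markers to 101 to 151 CPM in IRF8-cKO and 215 to 318 CPM in WT. Of these 6 lists, 1 gene passed by edgeR, the haemoglobin gene Hba-a2, which was lower (adjusted p = 0.0495) and is a close copy of Hba-a1, so the split of reads between them is uncertain. That call was lost with median-of-ratios scaling, library totals only, limma-voom, no robust shrinkage or the gene length trend removed, and without any 1 of the libraries other than IRF8-cKO-88. Erythroid markers were lower without overlap in 4 of 5 tested genes (DESeq2 called 4). All 6 tested cholangiocyte markers were lower without overlap, with a median log2 fold change of -2.19 and an unadjusted edgeR p under 0.05 in 6, while DESeq2 called 4 and limma-voom 0. Most of the cholangiocyte sum was Spp1, at 116 to 209 CPM in IRF8-cKO and 407 to 853 CPM in WT. The part of these cell types in the values of the sensor genes was not tested.

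Levels were set between genes on a per-length scale (RPKM, CPM per kilobase of gene). Mavs stood at 31.6, 25.7 and 23.3 RPKM in the IRF8-cKO libraries, against 11.8, 5.80 and 10.2 RPKM in the WT libraries. In IRF8-cKO livers the highest levels were those of Mavs (26.9 ± 4.30 RPKM), Trim25 (21.8 ± 7.55) and Tbk1 (11.2 ± 0.979; SD, n = 3 each). Mavs exceeded Tbk1 in all 3 IRF8-cKO libraries, whereas its order with Trim25 changed between libraries. In WT livers Trim25 led with 23.0 ± 1.60 RPKM, followed by Tbk1 with 11.5 ± 2.08 and Mavs with 9.25 ± 3.10 RPKM, of which the last 2 did not differ beyond their spread. The receptors were far lower in both groups. Ifih1 had 2.03 ± 0.328 RPKM in IRF8-cKO and 2.04 ± 0.0959 in WT, and Ddx58 had 1.32 ± 0.669 RPKM in IRF8-cKO and 1.13 ± 0.397 in WT. Zbp1, Eif2ak2 and Dhx58 lay between 0.792 and 3.28 RPKM in every library, a range in which their order changed between libraries. Aim2 and Ddx60 were lowest, at 0.149 to 0.563 RPKM.

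The level of the adaptor relative to its receptors followed from these values. Mavs divided by the sum of Ddx58 and Ifih1 on the RPKM scale was 7.20, 10.6 and 7.18 in the IRF8-cKO libraries, against 3.77, 2.14 and 2.77 in the WT libraries. The ratios of the groups did not overlap, and since both terms come from 1 library they do not depend on its scaling. The sum of Ddx58 and Ifih1 overlapped, at 2.41 to 4.40 RPKM in IRF8-cKO and 2.72 to 3.67 RPKM in WT. The separation of the ratio thus restates that of Mavs and is no further result.

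**Figure D4:**
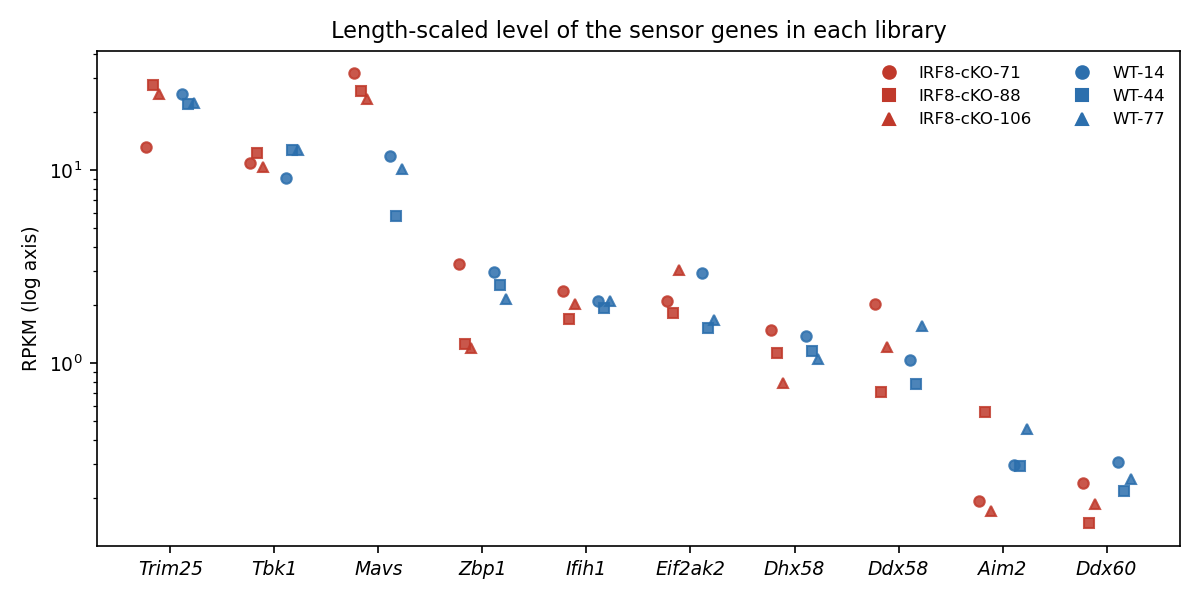
RPKM of each sensor gene (vertical log axis) in the 6 libraries, ordered by the WT mean. Mavs reaches 23.3 to 31.6 RPKM in IRF8-cKO and 5.80 to 11.8 RPKM in WT, while Ddx58 and Ifih1 stay between 0.708 and 2.36 RPKM in all libraries.

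Genes around the sensors were taken from lists of the same pathway, with named genes chosen by lowest p. Kinases and adaptors below MAVS and STING moved in both directions, with 1 of 18 higher, 1 lower, 16 not passing and a median log2 fold change of 0.012. Of all genes, 0.449% were called higher and 0.937% lower. Ikbkg, encoding the NEMO subunit that links MAVS to NF-kB, rose 2.90-fold in IRF8-cKO, with 132, 126 and 175 CPM in the IRF8-cKO libraries, against 66.3, 41.2 and 41.7 CPM in the WT libraries (log2 fold change 1.54, SE 0.30, edgeR adjusted p = 0.0448). Its groups did not overlap, as is true of 14.4% of all genes in this direction. Irf7, the interferon-inducible IRF that amplifies interferon production, fell to 16.0, 18.3 and 14.9 CPM in the IRF8-cKO libraries, against 37.6, 46.1 and 37.3 CPM in the WT libraries (log2 fold change -1.30, SE 0.25, adjusted p = 0.0446). Ikbkg overlaps G6pdx, which had few reads beside it (956 against 10163), and Irf7 overlaps Phrf1, with 2968 reads beside 2591 for Irf7, so that the count of Irf7 is uncertain. With library totals only, 0 of the 18 genes were called, as was so without WT-44, without WT-77 or without IRF8-cKO-106. The count was 1 by limma-voom, with the gene length trend removed, without WT-14 and without IRF8-cKO-71.

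Cofactors and regulators of RNA sensing had 0 of 18 genes passing by edgeR (DESeq2 called 3, limma-voom 0, and 5 had an unadjusted p under 0.05) and a median of 0.19. For this list and the others of this paragraph, the shares of all genes were 10.8% by DESeq2, 0.845% by limma-voom and 24.1% by unadjusted edgeR p. Rnf122, a ubiquitin ligase gene, had the lowest p, with 0.616, 0.739 and 0.601 CPM in the IRF8-cKO libraries, against 1.28, 3.19 and 9.75 CPM in the WT libraries (log2 fold change -2.85, SE 0.71, edgeR adjusted p = 0.0700). Rnf135, named here after its values were seen because it encodes RIPLET, the ligase that activates RIG-I, had 15.3, 2.71 and 7.08 CPM in the IRF8-cKO libraries, against 1.90, 1.98 and 1.92 CPM in the WT libraries (log2 fold change 2.11, SE 0.58, adjusted p = 0.0861). WT libraries agreed closely for Rnf135 and IRF8-cKO libraries spread widely. Other helicases linked to sensing had 0 of 10 passing (DESeq2 called 1, limma-voom 0, and 1 had an unadjusted p under 0.05), with Dhx29, a translation initiation helicase gene, at 1.36 (SE 0.32, edgeR adjusted p = 0.0627). Endosomal receptors had 0 of 7 passing (DESeq2 called 0, limma-voom 0, and 0 had an unadjusted p under 0.05), with Tlr7 at 1.11 (SE 0.56, edgeR adjusted p = 0.246).

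DNA sensing genes, from cGAS and STING to the PYHIN relatives of AIM2, had negative log2 fold changes in 11 of 11 tested members, with a median of -1.02. Of all genes, 48.5% were negative. None of the 11 passed by edgeR. DESeq2 called 1, beside 10.8% of all genes, limma-voom 0, beside 0.845%, and 5 had an unadjusted edgeR p under 0.05, beside 24.1%. CPM of 7 of the 11 were lower without overlap, beside 14.5% of all genes in that direction. Ifi209, a PYHIN gene, had the lowest p, with 1.42, 2.77 and 1.90 CPM in the IRF8-cKO libraries, against 5.08, 4.57 and 5.51 CPM in the WT libraries (log2 fold change -1.32, SE 0.41, edgeR adjusted p = 0.103). Tmem173, encoding STING and named for that role after its values were seen, had 4.31, 6.78 and 3.75 CPM in the IRF8-cKO libraries, against 7.47, 7.16 and 9.62 CPM in the WT libraries (log2 fold change -0.71, SE 0.36, adjusted p = 0.256). Mb21d1, encoding cGAS and named for the same reason, had 0.185, 0.739 and 0.324 CPM in the IRF8-cKO libraries, against 0.979, 1.21 and 0.929 CPM in the WT libraries. It had 66 reads over the 6 libraries, and its level in IRF8-cKO-71 is that of 3 counts, so these values lie near the floor. PYHIN genes are close copies of each other, and Ifi203, Ifi211 and Mndal overlap on the same strand, so reads may be shared among them. Aim2 itself had a log2 fold change of -0.19 with all libraries, which became -0.93 (SE 0.65) without IRF8-cKO-88, its highest library, and the 11 genes ran from -1.36 to -0.34 with all libraries.

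**Figure D5:**
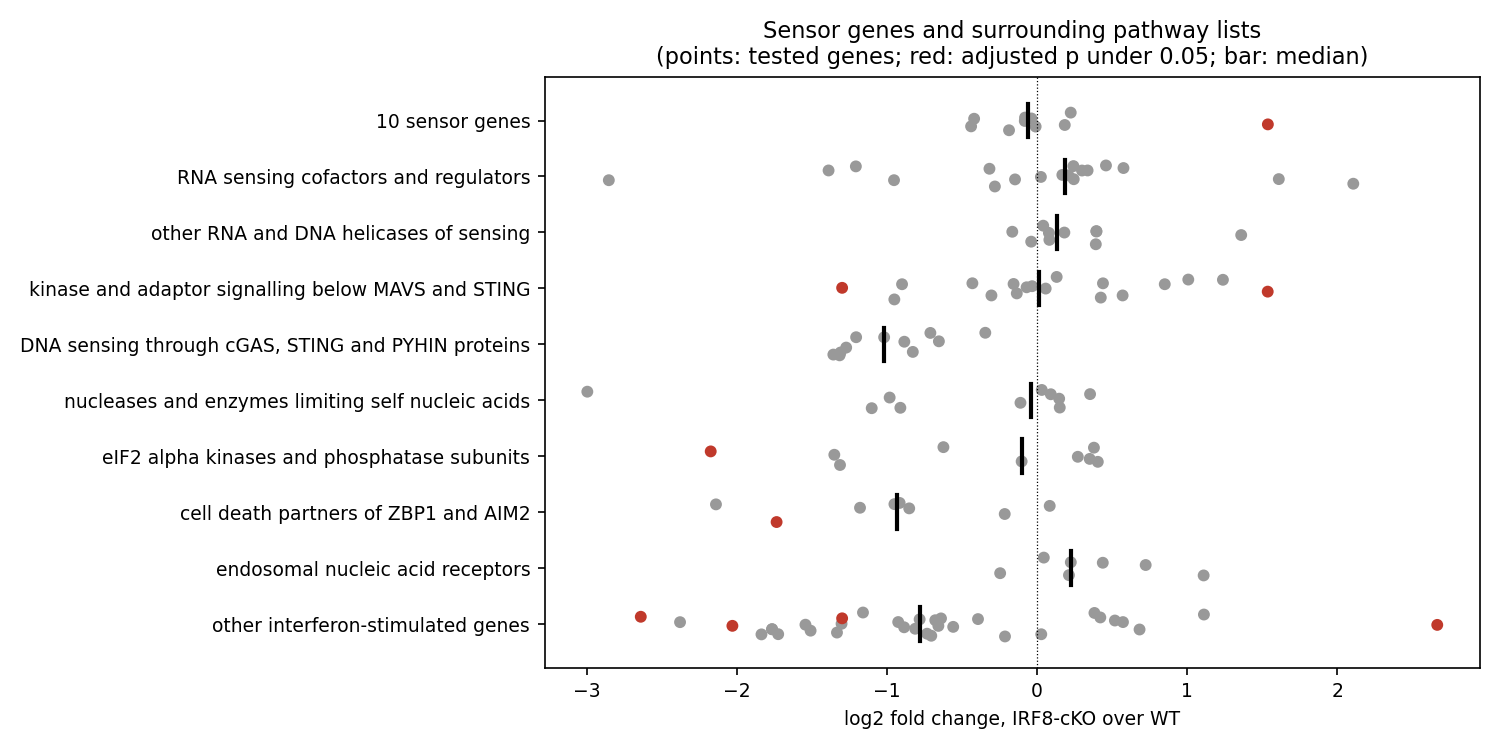
Log2 fold change in IRF8-cKO over WT (horizontal axis) of every tested gene in the sensor set and the surrounding lists, with a black bar for each median and red points for adjusted p under 0.05. The sensor genes lie around 0 apart from Mavs, the DNA sensing list has a median of -1.02, and other interferon-stimulated genes have a median of -0.78.

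Partners of ZBP1 and AIM2 in cell death had 1 of 8 lower, beside 0.937% of all genes, 0 higher and 7 not passing. The median log2 fold change of the 8 was -0.93. The gene that passed was Il1b, the inflammasome-processed cytokine, with 3.94, 4.74 and 4.40 CPM in the IRF8-cKO libraries, against 15.8, 9.57 and 18.2 CPM in the WT libraries (log2 fold change -1.73, SE 0.35, edgeR adjusted p = 0.0472). Around PKR, the list of eIF2 alpha kinases and phosphatase subunits had 1 of 9 lower, beside the same 0.937%, 0 higher and 8 not passing. Ppp1r15a, encoding GADD34, which reverses eIF2 alpha phosphorylation, fell to 11.7, 20.4 and 24.7 CPM in the IRF8-cKO libraries, against 50.2, 105.96 and 100.4 CPM in the WT libraries (log2 fold change -2.17, SE 0.38, adjusted p = 0.0408). Neither list had a called gene with library totals only, with the gene length trend removed, or without WT-44, WT-77 or IRF8-cKO-106. The list of cell death partners also had 0 called by limma-voom, without WT-14 and without IRF8-cKO-71. It had 3 called by DESeq2, beside 10.8% of all genes.

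At the end of the pathway, 9 of 10 interferon genes, Ifnb1 among them, had 0 reads in all 6 libraries, and Ifng had 1 read in IRF8-cKO-71 and 1 in WT-77. A count of 0 allows a level of up to 0.139 to 0.185 CPM in the IRF8-cKO libraries and 0.184 to 0.259 CPM in the WT libraries (3 counts per library, for counting error alone). Interferon-stimulated genes other than the sensors had 3 of 33 lower, beside 0.937% of all genes, 1 higher, beside 0.449%, and 29 not passing. Their median was -0.78, and 25 of 33 values were negative, beside 48.5% of all genes. CPM of 15 were lower without overlap, beside 14.5% of all genes, and 3 were higher, beside 14.4%. Among the sensors with an IRF element in their promoter, the log2 fold change was -0.0098 for Ifih1, 0.22 for Ddx58, 0.18 for Eif2ak2 and -0.44 for Ddx60. Ifit3, an antiviral effector gene, stood at -2.64 (SE 0.35, edgeR adjusted p = 0.0243), Mx2, an antiviral GTPase gene, at -2.03 (SE 0.37, adjusted p = 0.0430), and Dtx3l, a ubiquitin ligase gene, at 2.66 (SE 0.35, adjusted p = 0.0243). Without WT-44, without WT-77 or without IRF8-cKO-106, 0 of these 33 genes were called, while 2 were with library totals only, 2 by limma-voom and 12 by DESeq2. Of all genes, DESeq2 called 10.8%. Dtx3l overlaps Parp9 on the opposite strand, so reads of this pair may be shared. Irf7 is counted in this list and in the list of kinases and adaptors, and Bst2 in this list and among dendritic cell markers.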

How the data were processed

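The deposited table holds raw counts of reads per gene, which the authors did not normalise. Per the submitters' processing notes, the tools were featureCounts 1.5.0-p3 and HISAT2 2.0.5 and the build was mm10. How strand and multiply mapped reads were handled, and which annotation release was counted, is not given in the sources used here. Per the file headers the deposited table also gives 1 length per gene in another column, which was used for RPKM and for the length correction.

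Groups came from the titles. Within each group, counts of every pair of libraries differed by more than sampling noise (chi-square over degrees of freedom at least 69.9), and none was taken as a copy. The comparison used edgeR 4.0.16 under R 4.3.3 (TMM scaling, filterByExpr with a minimum count of 10 and total of 15, robust quasi-likelihood test with group as the only term, Benjamini-Hochberg adjustment over all 13134 genes, threshold 0.05). A positive log2 fold change is a higher level in IRF8-cKO. Each edgeR SE is the absolute log2 fold change over the square root of F, and 95% intervals use the fit's degrees of freedom. The DESeq2 SE is the one that tool reports, and the limma-voom SE is the absolute log2 fold change over the absolute t. The permutation test added 0.5 to CPM. Alternatives were 3 other scalings, 2 other filters, DESeq2 1.42.0, limma-voom (limma 3.58.1), no robust shrinkage, a per-library length correction (lowess, span 0.5) and each library left out. Removal of mitochondrial genes and of WT-44 with WT-77 was added after seeing the data. The code was tested on simulated data. All 10 genes and Irf8 were named by rule. For each pathway list up to 3 genes that passed with the lowest p were named, or else the gene with the lowest p. Sensor genes and lists were chosen with earlier results of these data known. Promoters come from RefSeq (GRCm38.p6).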

Additional observations from a re-analysis of the deposited data

How the results depend on the processing

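No paired analysis was possible because the titles share no replicate number between the groups. Of all genes, 182 were called, and 82 with library totals only, 1723 without a low-count filter, 1423 by DESeq2, 111 by limma-voom and 77 with the gene length trend removed. Leaving out 1 library gave 0 to 1205 called genes (0 when WT-77 was left out, 1 for WT-44, 20 for IRF8-cKO-106 and 1205 for IRF8-cKO-88). With library totals only, the split was 39 higher and 43 lower, beside 59 and 123, and the median over all genes shifted to 0.25 on the log2 scale. The 1 called sensor gene, Mavs, became 0 called with median-of-ratios scaling, upper-quartile scaling, library totals only, limma-voom, no robust shrinkage, the length trend removed or mitochondrial genes removed, and 0 to 1 when 1 library was left out. The adjusted p of Mavs in these settings that kept all libraries lay between 0.0504 and 0.0618. The cause was not tested, and settings that leave libraries out have fewer samples.

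Over all alternatives the other 9 sensor genes had 153 values of log2 fold change, of which 0 passed (lowest edgeR adjusted p 0.137). The sign changed in 23 of them, where the value was at most 0.33 in size. With library totals only, log2 fold changes were 0.21 for Ifih1, 0.087 for Dhx58, 0.16 for Trim25 and 0.20 for Tbk1. Without a low-count filter Ifih1 stood at 0.012. Without both WT-44 and WT-77, Eif2ak2 stood at -0.33, Tbk1 at 0.30 and Aim2 at 0.051. Leaving out 1 library gave -0.22 to 0.52 for Ddx58, -0.12 to 0.10 for Ifih1, -0.32 to 0.14 for Dhx58, -0.051 to 0.54 for Eif2ak2, -0.28 to 0.19 for Trim25, -0.18 to 0.035 for Tbk1 and -0.93 to 0.13 for Aim2. Depth limits Aim2 and Ddx60 most, at 11 to 44 reads per library.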

Other observations

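Nucleases and other enzymes limiting self nucleic acids had 0 of 10 tested genes passing by edgeR (DESeq2 called 2, limma-voom 0, and 4 had an unadjusted p under 0.05), with a median log2 fold change of -0.040. The shares of all genes were 10.8% by DESeq2, 0.845% by limma-voom and 24.1% by unadjusted edgeR p. Rnaset2b had the lowest p (log2 fold change -3.00, SE 0.72, edgeR adjusted p = 0.0642), but Rnaset2a is a close copy and the split of reads between them is uncertain. All 3 subunits of RNase H2, the enzyme that removes ribonucleotides from DNA, lay lower without overlap, and they were picked out after their values were seen. Over the whole list 4 of 10 genes were lower without overlap, beside 14.5% of all genes, 0 were higher without overlap, and 5 of 10 log2 fold changes were positive. Rnaseh2a had 10.8, 9.86 and 11.8 CPM in the IRF8-cKO libraries, against 22.2, 21.2 and 20.7 CPM in the WT libraries (log2 fold change -0.98, SE 0.26, edgeR adjusted p = 0.0770). Rnaseh2b had 5.30, 3.51 and 3.79 CPM in the IRF8-cKO libraries, against 8.32, 7.33 and 8.03 CPM in the WT libraries (log2 fold change -0.91, SE 0.34, adjusted p = 0.151). Rnaseh2c had 24.3, 14.9 and 19.0 CPM in the IRF8-cKO libraries, against 36.1, 47.9 and 41.1 CPM in the WT libraries (log2 fold change -1.10, SE 0.28, adjusted p = 0.0700). None of the 3 passed. Rnaseh2a overlaps Prdx2 and Rnaseh2c overlaps Kat5, so their counts may hold reads of these neighbours.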
